A study of Rattus norvegicus with 12 samples.

Results

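In rat lenses, 10 genes of the actin cytoskeleton were followed during the onset of a hereditary cortical cataract. They are actin regulators among the 18166 genes measured, chosen by their log2 signals on these same arrays, because the signal moved with age in the cataract strain or its course differed between the strains. The LIM domain genes are *Pdlim1*, *Lims1*, *Lims2* and *Limd1*. The others are *Spire1* and *Whamm*, which start actin filaments, the NHS family gene *Nhsl1*, the unconventional myosin *Myo18a*, the adaptor *Sorbs2* and the troponin gene *Tnnt2*. Each gene was read from the probe set that carries its symbol alone, and only *Limd1* had another, which stayed between 2.72 and 4.12 on all 12 arrays.

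Lenses came from male ICR rats, the Ihara Cataract Rat, and from male Sprague Dawley (SD) rats, the wild type with clear lenses. ICR rats carry a recessive hereditary cataract, and their lenses were clear at 4 weeks and had cortical opacity at 8 and 10 weeks. There were 3 ICR arrays and 1 SD array at each of the 3 ages, and no treatment is named in the labels. For slit lamp observation, mydriatics were put on ICR eyes, and whether those rats also gave arrayed lenses is not stated. Rats were euthanized with CO2. Nothing states that the 3 ICR samples of an age were separate rats, so p-values here cover only sample-to-sample spread, which may be technical, and SD has no spread of its own. ICR and SD are separate stocks, so a difference between them cannot be told apart from other differences of their genetic background.

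A lens is a single layer of epithelial cells over a mass of elongated fiber cells, and fibers keep their shape through actin filaments tied to a membrane skeleton of spectrin and tropomodulin. LIM domains are zinc-binding protein modules that hold other proteins, and many LIM proteins sit where actin filaments meet integrins or alpha-actinin. Filaments are started by nucleators, pulled by myosins and anchored by adaptors, and the genes below are described in that order of roles. In whole lenses, fewer cells of a type and less RNA per cell cannot be told apart.

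Signals are on the log2 scale, where a difference of 1 is a doubling, and a signal of 5 is the study's own minimum. All 10 genes reached it on at least 1 ICR array, as did 4546 genes in all. Between 3115 and 3934 genes reached 5 on an ICR array and between 3023 and 3339 on an SD array, and ICR arrays of one age correlated with r between 0.848 and 0.974. Lens fiber markers were at 5 or more on every array for 9 of 9 measured genes, with a mean between 11.00 and 11.28, and 7 of 7 epithelial markers reached 5 on some array. The measured markers of leukocytes, endothelium, red blood cells, retina and smooth muscle reached 5 on no array. In that order, 7 of 7, 3 of 5, 1 of 5, 4 of 5 and 7 of 9 were measured. Retinal *Gnat1* came closest, at 4.97 in SD at 4 weeks. The ICR arrays that share a replicate number departed from their age means in the same direction, and replicate 1 was the highest of its age at all 3 ages for 44.4% of genes.

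For the promoters, 12 start-site windows of 9 of the 10 genes were found in RefSeq (GRCr8 build), each reaching from upstream of the start site into the transcript. The windows were searched on both strands for the Maf half-site TGCTGA, for the MCAT site CATTCC bound by TEAD factors, for the AP-1 site TGANTCA, the E-box CANNTG, the GC box GGGCGG and the CArG box of serum response factor, which drives many actin genes. These sites were chosen because Maf factors act in lens fibers and because the others are known from actin or muscle genes or, for the GC box, from promoters at large. The windows below show the Maf and MCAT matches that *Nhsl1* and *Tnnt2* hold, with the match in capitals as read along the gene's own strand. Their E-box matches are not shown. Distances are to the start site of the window, which for *Nhsl1* lies inside the gene (chr1:14775874-15008327). The *Tnnt2* stretch listed at its start site spans that site, and its match begins just inside the transcript.
Nhsl1, chr1:14899991-14900016, 181 bases before its start site: gaacggagacTGCTGAccctgggctt
Nhsl1, chr1:14900071-14900096, 101 bases before: tagggaggtgTCAGCAgcccggccag
Nhsl1, chr1:14900154-14900179, 18 bases before: gctctctggcTGCTGAggaggtgggt
Tnnt2, chr13:49819030-49819055, 83 bases before, MCAT site: tcctgctgcaCATTCCtcccaccgtg
Tnnt2, chr13:49819119-49819144, at its start site, Maf half-site: agccagtcccTGCTGAggctgagcag

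The Maf half-site was present in 4 of the 12 windows, 1 each of *Lims1*, *Nhsl1*, *Tnnt2* and *Spire1*, and in 18.4% of all 33469 windows. In *Nhsl1* the 3 copies lay in 1 window, at a start site inside the gene, and 0.197% of all windows held 3 or more. A MCAT site was found in 2 of the 12 windows, of *Lims2* and *Tnnt2*, beside 14.2% of all windows. The E-box was in 6 of the 12 and the GC box in 6, beside 72.1% and 33.1% of all windows. No window of the 9 genes held a CArG box or an AP-1 site, which 1.64% and 7.33% of all windows did. A match describes the letters only, and no match says nothing about the factor.

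*Pdlim1* encodes a PDZ and LIM protein that binds alpha-actinin on actin fibers. Its log2 signal at 4 weeks was 7.58, 7.02 and 6.79 in ICR replicates 1, 2 and 3 and 6.92 in SD. At 8 weeks it was 7.82, 7.26 and 7.40 in ICR and 5.13 in SD, and at 10 weeks 7.90, 7.49 and 7.46 in ICR and 5.35 in SD. The strains lay together at 4 weeks, and at 8 and 10 weeks the SD array lay below every ICR array. The SD signal dropped by 1.79 from 4 to 8 weeks, while the ICR mean went from 7.13 ± 0.40 (s.d., n = 3) at 4 weeks to 7.62 ± 0.24 at 10 weeks, a difference of 0.49 with a standard error (SE) of 0.24, which was 0.32 without replicate 3 of 4 weeks.

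*Lims1* encodes PINCH1, a LIM-only adaptor that joins integrin-linked kinase at focal adhesions. Its ICR signals were 6.27, 6.45 and 6.42 at 4 weeks, 6.66, 6.93 and 6.77 at 8 weeks, and 7.12, 7.15 and 7.07 at 10 weeks. The SD arrays read 6.78, 6.78 and 6.65 at the 3 ages. The ICR arrays of each age lay above all those of the age before, by 0.74 in the mean from 4 to 10 weeks (SE 0.12), and the SD arrays stayed within 0.13 of each other. SD stood above every ICR array at 4 weeks and below every ICR array at 10 weeks.

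*Lims2* encodes PINCH2, the close relative of PINCH1. In ICR it read 6.13, 5.18 and 5.68 at 4 weeks, 5.97, 5.39 and 5.04 at 8 weeks, and 5.40, 5.08 and 4.83 at 10 weeks. The SD arrays read 4.21, 4.54 and 5.21. The ICR ages overlapped, with a mean difference of −0.56 from 4 to 10 weeks (SE 0.31), which was −0.33 without replicate 1 of 4 weeks. The SD signal was higher at 10 than at 4 weeks by 1.0.

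*Limd1* encodes a LIM protein of the zyxin family found at adhesions and in Hippo signaling. It read 6.81, 6.18 and 6.17 in ICR at 4 weeks, 6.11, 5.99 and 5.33 at 8 weeks, and 5.33, 4.90 and 4.29 at 10 weeks. The SD arrays read 5.79, 5.66 and 5.69. The highest 10-week ICR array matched the lowest 8-week one to 2 decimals, and the larger share of the decline came late, −0.58 from 4 to 8 weeks and −0.97 from 8 to 10. The SD signal differed by −0.09 from 4 to 10 weeks, so SD lay below every ICR array at 4 weeks and above every one at 10 weeks.

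**Figure D1:**
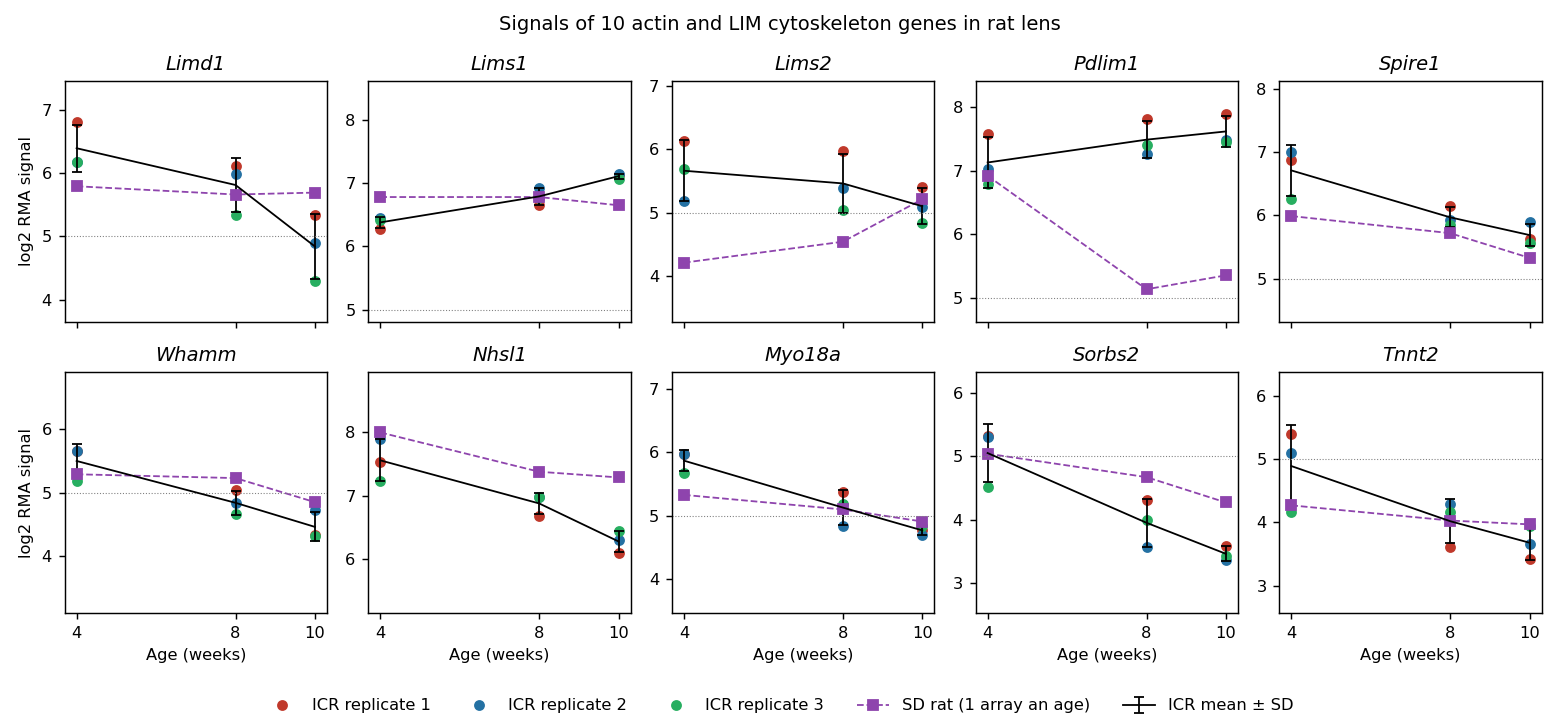
Log2 signal (vertical axis, each panel spanning the same range) against age in weeks for the 10 genes, with ICR replicates as colored points, the ICR mean ± s.d. of 3 arrays in black and the single SD array of each age as purple squares. The dotted line marks the minimum signal of 5. SD falls away from ICR for *Pdlim1* at 8 and 10 weeks (5.13 and 5.35), and SD changes sides of the ICR mean between 4 and 10 weeks for *Lims1*, *Lims2*, *Limd1*, *Myo18a*, *Tnnt2* and *Whamm*.

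*Spire1* encodes a nucleator that lines up actin monomers through its WH2 domains. In ICR lenses it read 6.87, 7.0 and 6.26 at 4 weeks, 6.15, 5.92 and 5.85 at 8 weeks, and 5.63, 5.89 and 5.56 at 10 weeks. The SD arrays read 5.99, 5.72 and 5.33 and lay below every ICR array of the same age. *Spire1* stood 2.02-fold lower at 10 than at 4 weeks in ICR (−1.01 in log2, SE 0.21) and 1.58-fold lower in SD, and most of the ICR difference was there by 8 weeks (−0.73).

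*Whamm* encodes a nucleation-promoting factor of the Arp2/3 complex that works on membranes. It read 5.66, 5.65 and 5.19 in ICR at 4 weeks, 5.04, 4.83 and 4.66 at 8 weeks, and 4.33, 4.73 and 4.31 at 10 weeks, with no overlap between 4 weeks and either later age. The SD arrays read 5.29, 5.23 and 4.85. The difference from 4 to 10 weeks was −1.04 in ICR (SE 0.19) and −0.45 in SD, of which −0.06 was there by 8 weeks.

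*Nhsl1* is a relative of *Nhs*, the gene of Nance-Horan syndrome, in which cataract is a feature, and its protein binds the Scar/WAVE complex that drives branched actin. It read 7.54, 7.90 and 7.24 in ICR at 4 weeks, 6.68, 6.98 and 6.98 at 8 weeks, and 6.10, 6.30 and 6.45 at 10 weeks. SD read 8.00, 7.38 and 7.29, above every ICR array of its age. The 3 ICR ages did not overlap, with differences of −0.68 from 4 to 8 weeks and −0.60 from 8 to 10 weeks, and SD changed by −0.71 over the 6 weeks.

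*Myo18a* encodes an unconventional myosin that binds actin with little motor activity. Its ICR signals were 5.97, 5.97 and 5.67 at 4 weeks, 5.37, 4.84 and 5.18 at 8 weeks, and 4.77, 4.69 and 4.84 at 10 weeks. SD read 5.33, 5.10 and 4.91, below all ICR arrays at 4 weeks and above them all at 10 weeks. The ICR mean differed by −1.10 from 4 to 10 weeks (SE 0.16) and the SD array by −0.42.

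*Sorbs2* encodes an SH3 adaptor of stress fibers and, in heart, of Z-discs. It read 5.32, 5.31 and 4.52 in ICR at 4 weeks, 4.31, 3.56 and 4.00 at 8 weeks, and 3.59, 3.36 and 3.42 at 10 weeks. SD read 5.04, 4.67 and 4.27. The 8-week and 10-week ICR arrays were all under the minimum of 5, so the ICR difference of −1.59 (SE 0.26) runs from near that minimum to below it, and SD changed by −0.77.

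*Tnnt2* encodes cardiac troponin T, the part of the thin filament that holds tropomyosin. In ICR it read 5.39, 5.10 and 4.17 at 4 weeks, 3.62, 4.29 and 4.16 at 8 weeks, and 3.42, 3.66 and 3.95 at 10 weeks. The SD arrays read 4.27, 4.03 and 3.97. Only 2 of the 12 arrays reached 5, both ICR at 4 weeks, and replicate 3 of that age lay among the 8-week arrays. Of the striated muscle markers, 1 of 14 measured reached 5 on any array (*Ckm*, up to 5.62). The list mean lay between 2.81 and 3.09 at 4 weeks and between 2.98 and 3.24 at 10 weeks in ICR. Single markers lay on either side of *Tnnt2*. At 10 weeks in ICR, *Ckm* (5.40 to 5.62) and *Tnnc1* (4.32 to 4.90) were above it, and *Myh6* (1.36 to 1.74) and *Ttn* (2.22 to 2.32) below it.

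From 4 to 10 weeks the ICR arrays did not overlap for 8 of the 10 genes, 1 higher (*Lims1*) and 7 lower, beside 4.20% of all genes higher and 13.0% lower. From 4 to 8 weeks 1 gene was higher and 6 were lower (1.96% and 8.47% of all genes), and from 8 to 10 weeks *Lims1* was higher and *Limd1*, *Myo18a* and *Nhsl1* were lower (2.73% and 3.85%). With the replicate number as a block in limma, 2 genes would count as higher (*Lims1* and *Pdlim1*) and 7 as lower from 4 to 10 weeks, beside 1.58% and 7.33% of all genes (8.91% together). From 4 to 8 weeks with the block none of the 10 did (0.0220% of all genes higher and 0.154% lower), and from 8 to 10 weeks *Limd1* did, lower (0.220%). Without the block none of the 10 did in limma from 4 to 10 weeks, where 0.154% of all genes were lower. *Tnnt2* and *Sorbs2* entered these counts only through the age where they were high, since 2 ICR arrays reached 5 for each, both at 4 weeks. The choice of the genes used the differences between ages, so nothing is read from the counts. The 7 genes that were lower in ICR without overlap were also lower in the SD array at 10 than at 4 weeks, by between 0.09 and 0.77, as were 73.5% of all 4627 genes tested over both strains.

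**Figure D2:**
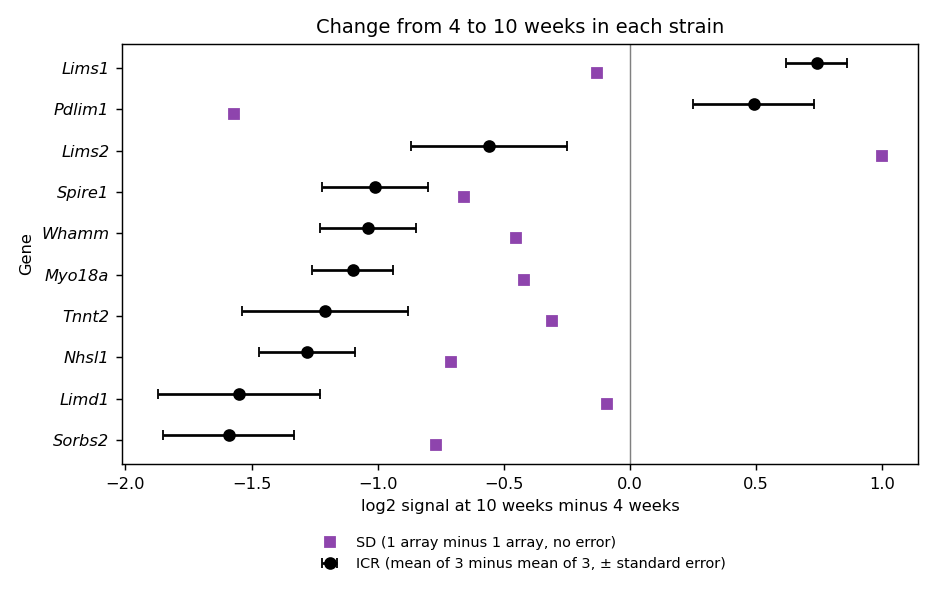
Log2 signal at 10 weeks minus 4 weeks (horizontal axis) for each gene, as the difference of ICR means with its standard error (black circles, 3 arrays against 3) and as the difference of 1 SD array from another (purple squares, no error). *Pdlim1* and *Lims2* lie on opposite sides of 0 in the strains, at 0.49 and −1.57 and at −0.56 and 1.0.

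The mean of 12 ciliary body and iris markers was lower at 10 weeks than at 4 weeks in ICR. It was between 4.51 and 5.33 on the ICR arrays at 4 weeks, between 4.31 and 4.82 at 8 weeks and between 3.89 and 4.24 at 10 weeks, and 4.57, 5.0 and 4.15 in SD. The markers did not move alike. *Fbn1* went from between 5.87 and 7.65 to between 3.59 and 5.22 in ICR, and *Slc26a4* from between 5.34 and 7.44 to between 3.61 and 5.02. *Ptgds*, the brightest, went from between 8.41 and 10.63 to between 9.90 and 11.17. Of the 12, 6 reached 5 on some array and 1, *Ptgds*, on all, while the pigment genes *Tyrp1*, *Dct*, *Pmel* and *Mlana* stayed below 5 throughout. The epithelial list had a mean between 6.93 and 7.09 at 4 weeks and between 6.62 and 6.78 at 10 weeks in ICR. The part of these cells in the differences was not tested.

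The gap in course between strains, the SD change minus the ICR change from 4 to 10 weeks, was −2.06 for *Pdlim1* (SE 0.49), 1.56 for *Lims2* (SE 0.62), 1.45 for *Limd1* (SE 0.65) and −0.87 for *Lims1* (SE 0.24). For the other 6 genes it ran from 0.36 for *Spire1* to 0.91 for *Tnnt2*. These errors take the spread of the ICR arrays for SD as well. The choice of the genes used this gap, so its sizes are a description. With the mean of both *Limd1* probe sets its gap was 0.91, and that of *Spire1* ran from 0.21 without replicate 2 of the ICR arrays at 4 weeks to 0.58 without replicate 3. No gene passed the limma test of this gap at 10 weeks, and 70 had an unadjusted p under 0.05.

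The mean offset between the strains over the 3 ages was not named in the choice of genes, but it comes from the same arrays, so it is given for the 10 genes as a description. In limma over all 12 arrays with age as a factor, none of the 10 passed at an adjusted p under 0.05, where 0.670% of all genes did, 0.303% higher and 0.367% lower in SD. *Pdlim1* had an offset of −1.61 (SE 0.35), and at 4, 8 and 10 weeks its SD array differed from the ICR mean by −0.21, −2.36 and −2.27. Its offset was −2.32, −1.24 and −1.29 without the SD array of 4, 8 and 10 weeks, and it passed only without that of 4 weeks, which leaves the ages at which its course had already parted. *Nhsl1* was 0.65 higher in SD (SE 0.16), with SD above the ICR mean by 0.44, 0.50 and 1.01 at the 3 ages. *Lims2*, *Sorbs2* and *Spire1* had offsets of −0.76, 0.51 and −0.45. The remaining 5 lay between −0.14 and 0.19. SD lay outside the ICR arrays of its age at all 3 ages for *Nhsl1*, above them, and for *Spire1*, below them, beside 3.20% and 6.09% of all genes.

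The ICR replicates differed in ways that the ages share. Replicate 1 was the highest of its age at all 3 ages for *Pdlim1*, *Lims2*, *Limd1* and *Sorbs2*, beside 44.4% of all genes. It was above the age mean by 0.28 to 0.45 for *Pdlim1* and by 0.30 to 0.51 for *Lims2*. *Lims1* had replicate 2 highest at each age, which 4.05% of all genes did, and its deviations stayed between −0.13 and 0.15. *Limd1*, *Spire1* and *Whamm* had replicate 3 lowest at each age, beside 8.38% of all genes. With the replicate number as a block, the standard error of the difference from 4 to 10 weeks went from 0.32 to 0.14 for *Limd1* and from 0.24 to 0.12 for *Pdlim1*, and from 0.33 to 0.29 for *Tnnt2*, whose replicate 1 was highest at 4 weeks and lowest at 8 and 10 weeks.

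**Figure D3:**
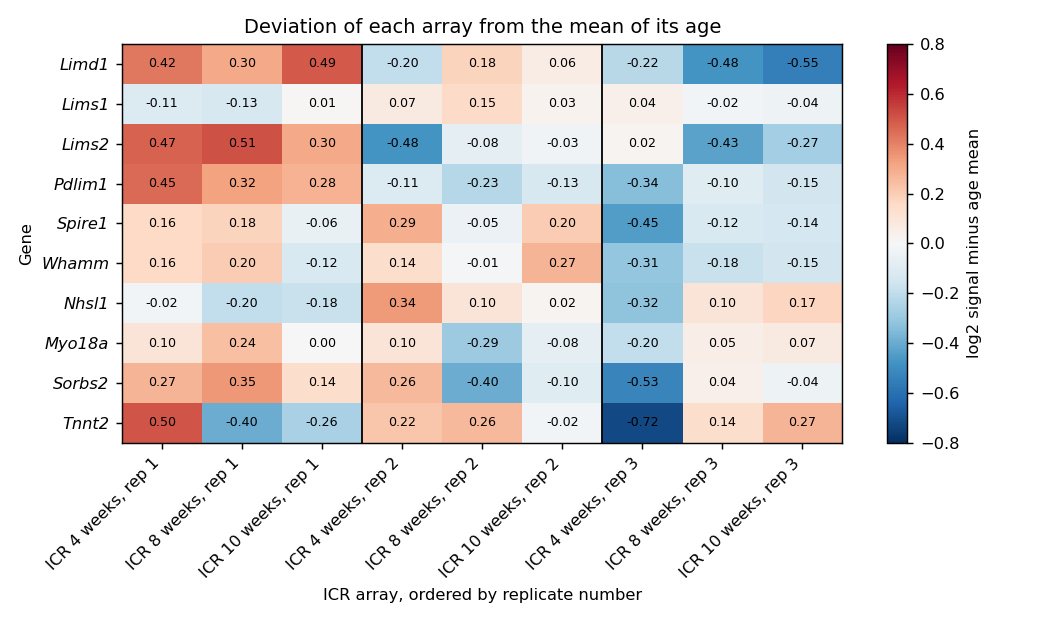
Each ICR array's log2 signal minus the mean of its age (color and printed value) for the 10 genes, with arrays ordered by replicate number and then age, 3 arrays a number. Replicate 1 is above the mean at every age for *Pdlim1* and *Lims2*, and *Tnnt2* goes from 0.50 at 4 weeks to −0.40 at 8 weeks in replicate 1.

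Around the age means, *Spire1* and *Whamm* moved together over the 9 ICR arrays (r = 0.932), as did *Myo18a* and *Sorbs2* (r = 0.919). Of all pairs of genes tested, 4.79% and 5.94% had an r as high, and all pairs share the arrays and their replicate numbers. The values named were the highest of the 45 pairs of the 10 genes, and the lowest was *Lims1* with *Myo18a* (r = −0.821). Over the 45 pairs the median r was 0.29, and it was 0.18 over all pairs of genes. Over the 12 arrays, the gene most like *Nhsl1* was *Sort1* (r = 0.968), and the third was *Maf* (r = 0.945), a transcription factor of lens fibers. *Limd1* ran closest to *Dnase2b*, the nuclease that removes DNA from lens fibers (r = 0.947), and *Myo18a* to the calpain *Capn3* (r = 0.945). *Tnnt2* ran closest to the spectrin gene *Sptb* (r = 0.956), *Pdlim1* to *Cd47* (r = 0.933), *Lims2* to *Mboat1* (r = 0.954) and *Lims1* to *Stk35* (r = 0.896). *Sorbs2*, *Spire1* and *Whamm* ran closest to *Metap1* (r = 0.94), *Ell2* (r = 0.953) and *Kdm3a* (r = 0.954). These values share age, array and replicate number and are descriptions.

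A wider list of 192 actin cytoskeleton genes, which leaves out the 10, was counted over the same contrasts, and 87 of the 159 measured were tested. From 4 to 10 weeks in ICR, 0 of the 87 passed in limma without the block, with 10 at an unadjusted p under 0.05 (11.5%, beside 11.0% of all genes). With the block 6 fell and 0 rose, 6.9% of the list lower beside 7.33% of all genes, with 18 at an unadjusted p under 0.05 (20.7%, beside 26.6% of all genes). The median difference of the list was −0.04 and that of all genes −0.10.

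The 6 genes that fell with the block came from 6 of the list's 10 groups. *Tmod2*, which caps the pointed ends of filaments, read 7.21, 7.35 and 6.84 at 4 weeks and 6.31, 6.27 and 6.11 at 10 weeks in ICR, without overlap, and 6.69, 6.48 and 6.34 in SD at 4, 8 and 10 weeks. It fell by 0.90 (−0.90, SE 0.12, adjusted p = 0.00271, limma with block). *Myo10*, the myosin of filopodia, read 5.12, 5.72 and 4.82 at 4 weeks and 3.90, 3.57 and 4.22 at 10 weeks, while SD stayed between 3.83 and 3.98, inside the ICR range of 10 weeks. Its ICR mean fell by 1.32 (SE 0.23, adjusted p = 0.00912, limma with block). *Myo10* entered the test only through the age where it was high, since 2 arrays reached 5, both ICR at 4 weeks. Its fall therefore runs from near that minimum to below it. The other 4 were the profilin *Pfn2* (−0.67, adjusted p = 0.0157), the membrane skeleton protein 4.1R gene *Epb41* (−0.59, adjusted p = 0.0192), the focal adhesion LIM adaptor *Pxn* (−0.52, adjusted p = 0.0199) and *Sorbs3*, the vinexin gene and a relative of *Sorbs2* (−0.55, adjusted p = 0.0289), all limma with block. *Tmod2* kept its call when any single ICR array was left out, but none of the 6 passed without the 3 arrays numbered 1, and without replicate 1 of 4 weeks or of 10 weeks only *Tmod2* did.

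Of the genes with the highest mean signal in each of the 10 groups of the list, 8 did not pass from 4 to 10 weeks. *Actb*, the cytoplasmic beta actin, differed by −0.09 from 4 to 10 weeks (SE 0.11 with the block). *Arpc2* of the Arp2/3 complex differed by −0.27, *Pfn1* by −0.23, the spectrin *Sptbn1* by −0.06, *Rhoa* by 0.03, *Rsu1*, a partner of PINCH1, by 0.26, *Nhs* by −0.25 and *Srf* by −0.13, with or without the block. *Tmod2* and *Pxn*, the highest of their groups, are described above. From 4 to 8 weeks and from 8 to 10 weeks no gene of the list passed in limma with the block, where 0.176% and 0.220% of all genes did. At an unadjusted p under 0.05 there were 9 and 5 genes of the list, 10.3% and 5.7%, beside 14.3% and 9.3% of all genes.

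**Figure D4:**
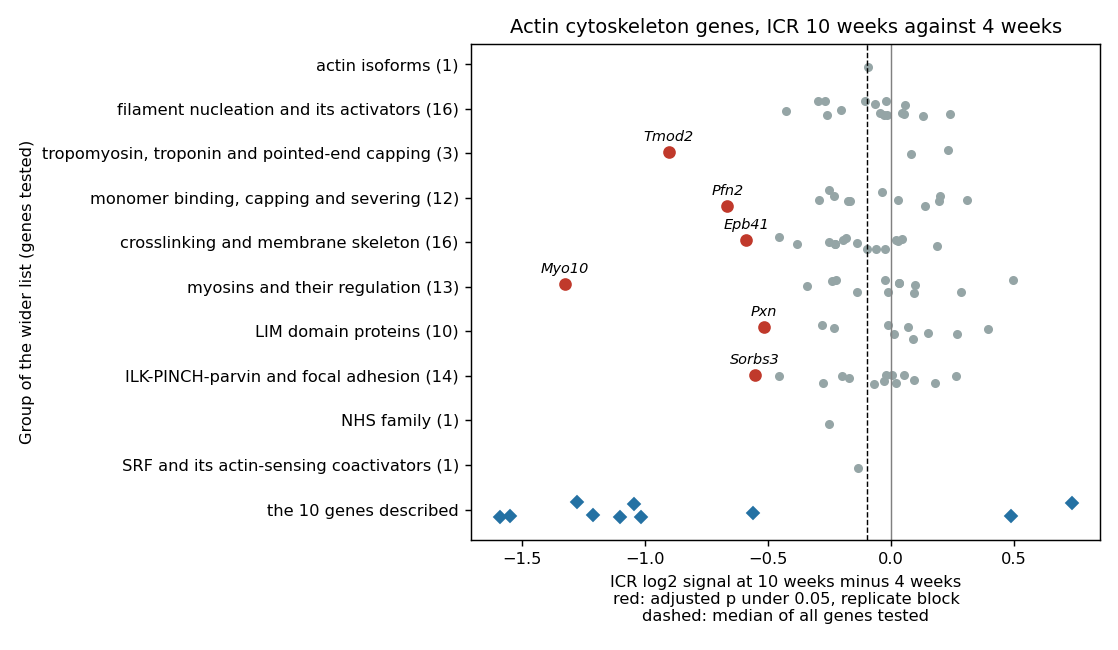
ICR log2 signal at 10 weeks minus 4 weeks (horizontal axis) for the 87 genes tested of the wider list by group, with genes past an adjusted p of 0.05 with the replicate block in red, and for the 10 genes described in blue. The dashed line is the median of all 4546 genes, −0.10, and 6 of the 87 genes are red, all below 0.

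Between the strains, 1 of the 87 genes tested of the wider list passed, beside 0.670% of all genes. It was *Zyx*, the LIM protein zyxin of focal adhesions. It read 6.80, 6.73 and 6.23 in SD at 4, 8 and 10 weeks, and in ICR between 5.39 and 6.10 at 4 weeks, between 5.42 and 5.55 at 8 weeks and between 5.24 and 5.67 at 10 weeks. SD lay above every ICR array of any age, by 1.03 in the fit over the 3 ages (SE 0.16, adjusted p = 0.0109, limma), and the call rests on all 3 SD arrays, since leaving out that of 4, 8 or 10 weeks gave an adjusted p of 0.0938, 0.155 or 0.0612. No gene of the list passed the limma test of the gap in course at 8 or 10 weeks, with 0 and 1 at an unadjusted p under 0.05. These are 0.0% and 1.1% of the list, beside 0.8% and 1.5% of all genes.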

How the data were processed

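Signals were measured on GeneChip Rat Gene 2.0 ST arrays hybridized with biotin-labeled total lens RNA. The values are log2 signals as the authors deposited them, after Robust Multi-array Average (RMA) normalization in R. No source names the RMA package or says if the 12 arrays went through RMA together. RMA forces arrays to a common distribution, so a signal is relative to the rest of its array, and low signals are compressed. No detection call was used.

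Of 36685 probe sets, 18511 carry 1 gene symbol in the platform annotation, 575 several and 17599 are not listed there. They gave 18166 genes, and of several probe sets the one with the highest mean over the ICR arrays was used (291 genes). Genes with a signal of 5 or more on at least 1 array fitted were tested, 4546 over 9 ICR arrays and 4627 over 12. Tests were 2-sided, using limma 3.58.1 (lmFit, eBayes; R 4.3.3), Benjamini-Hochberg adjusted over all genes tested to 0.05, with the spread of SD taken from the ICR arrays. The scripts were tested on simulated data. Arrays there were drawn independently, so the fits were not tried on spread shared by a replicate number. Plots used Python 3.11.15 and matplotlib 3.10.9.

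The labels number the ICR samples 1 to 3 at each age. Deviations from the age means correlated between 0.547 and 0.848 in all 9 pairs of arrays with the same number and between −0.75 and 0.508 in the 18 other pairs, so the numbers were taken to pair the samples, from the data alone. Arrays numbered 1 correlated with each other at 0.837 to 0.848, and negatively with other numbers. Number 2 with number 3 gave 0.345 to 0.508, so the pairing of these arrays is less distinct.

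The members and lists were chosen with earlier results of these data known. Genes named from the wider list were those past 0.05 in a comparison, up to 12 by smallest p with or without the block, and the one of highest mean in each group. Up to 3 genes most like each of the 10 were found by Pearson r over the 12 arrays, of which the closest is named for each, and *Maf*, which was singled out after its value was seen. Alternatives were the replicate block, no minimum signal, cyclic loess, a variance trend with robust estimation, leaving out each array or the 3 ICR arrays numbered 1, and the mean of all probe sets of a gene. Leaving out arrays within the block was added after seeing the data. RefSeq promoter windows (GRCr8) were matched by gene symbol.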

Additional observations from a re-analysis of the deposited data

Results flagged for a closer look

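For 3 of the 10 genes the SD signal went the other way from all ICR replicates. The share of all genes that did so by the same rule was not counted, so nothing about the 10 is read from this count. By the looser measure of the ICR mean, SD and ICR changed with the same sign from 4 to 10 weeks for 66.8% of all 4627 genes. An SD change at least as large as that of *Lims1* was seen for 70.8% of them. No gene passed the limma test of the gap in course, and since the course was used to choose these genes, their own difference is a description and was not tested separately. *Pdlim1* changed in SD by −1.79 from 4 to 8 weeks and by −1.57 from 4 to 10 weeks, while each ICR replicate was higher at both later ages than at 4 weeks. *Lims1* changed in SD by −0.00041 from 4 to 8 weeks, which is no change at the scale of these signals, and by −0.13 from 4 to 10 weeks, while each ICR replicate was higher. *Lims2* changed in SD by 1.0 from 4 to 10 weeks, while each ICR replicate was lower. SD has 1 array an age, so a single array decides each SD value.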

How the results depend on the processing

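The count of genes past the threshold from 4 to 10 weeks was 7 without the replicate block and 405 with it, 17 with cyclic loess, 23 with a variance trend and robust estimation, 15 without the 3 ICR arrays numbered 1, and 0 to 39 when 1 array was left out. For the wider actin list it was 0, with 6 under the block, 1 with the variance trend (*Tmod2*) and 0 to 1 with an array left out. From 4 to 8 weeks and from 8 to 10 weeks the block gave 8 and 10 genes in place of 0. Within the block, leaving out 1 array gave 81 to 415 genes and 1 to 7 of the list, with 81 without replicate 1 of 4 weeks and 87 without replicate 1 of 10 weeks, and leaving out the 3 arrays numbered 1 gave 30 and 0. Between the strains, 31 genes passed, 80 without the 3 arrays numbered 1 and 8 to 34 with an array left out. For the list it was 1 (*Zyx*), then 2 (*Zyx* and *Epb41l1*) and 0 to 1. The causes of these shifts were not tested. No paired analysis of the strains was possible because SD has 1 array an age.

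The strain offset of *Lims1*, −0.02, was 0.08 with cyclic loess and −0.23 to 0.20 with an array left out. Those of *Limd1*, *Myo18a* and *Tnnt2* ran from −0.37 to 0.35, from −0.28 to 0.06 and from −0.30 to 0.15 with an array left out, so none has a settled direction, and the cause was not tested. The *Lims2* offset of −0.76 ran from −1.19 to −0.41, and its difference from 4 to 10 weeks in ICR from −0.80 to −0.33. With the mean of both probe sets the *Limd1* difference from 4 to 10 weeks was −1.06. Fits of the gap in course without the SD array of that gap could not be made. No background signal stands beside these values, so for *Sorbs2*, *Tnnt2* and *Myo10*, mostly under 5, the differences may lie near the limit of detection.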
